A study of Mus musculus with 20 samples.

Results

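Late pregnancy was set against the non pregnant state in the visceral fat of C57BL/6J female mice on a high fat (HF) or a control diet, and the changes that pregnancy made on both diets were read over all genes. All 20 arrays of the series entered, 1 array per labelled mouse: 5 HF pregnant and 5 control pregnant mice were set against 5 HF non pregnant and 5 control non pregnant mice. The HF diet carried 58% fat and the control diet 10% fat, and both were fed for weeks before the pregnant mice were mated with males on chow. The labels write E18.5, the gestational day, for every mouse, the non pregnant ones included, and call the tissue visceral fat, where the study's text names the mesenteric depot. Lymph nodes large enough to see had been removed before the tissue was frozen, and no source gives a scan date or another batch.

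Late pregnancy is a state of high prolactin, placental lactogen, growth hormone, estrogen and glucocorticoid, in which maternal fat turns from storing lipid to releasing it. Prolactin and growth hormone receptors signal through JAK2 and STAT5, and STAT5 switches on its own inhibitors, Socs2 and Cish. Insulin-like growth factor 1 (IGF-1), another growth hormone target, is carried in plasma and tissue by binding proteins, of which Igfbp3 is the main one in blood.

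The array held 45101 probe sets, and 19802 of them exceeded an intensity of 100 in at least 5 of the 20 arrays and were tested. Where a gene had several tested probe sets the brightest on average stood for it, which gave 10603 genes. Array medians lay between 60.69 and 64.73, and the lowest correlation of any pair of arrays was 0.925, between control pregnant replicate 1 and HF non pregnant replicate 5. All 10 adipocyte markers found on the array (among them Adipoq, lowest value 14336, and Fabp4, lowest value 20803) exceeded 100 in all mice. Control pregnant replicate 2 and control non pregnant replicate 4 carried pancreatic acinar genes at a mean log2 deviation of 4.57 and 4.30, against at most 0.78 in the other 18 mice. Summed intensities of 12 B cell markers ran from 2502 to 32525 in pregnant and from 2728 to 36226 in non pregnant mice, highest in HF non pregnant replicate 5. A bulk array cannot tell fewer cells of a type from less RNA per cell.

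Averaged over both diets, pregnancy raised a single gene past the threshold, Igfbp3, by 1.29 on the log2 scale. Its 2 probe sets were the only ones of 19802 with an adjusted p under 0.05 by limma with Benjamini-Hochberg adjustment (0.0101% of the probe sets), and 0 were lower. At an unadjusted p under 0.05 there were 908 probe sets (4.59%), and 246 genes higher (2.32%) and 204 genes lower (1.92%). On the HF diet alone 5 probe sets passed (0.0252%), which belonged to Igfbp3 and Gpx3, both higher, and to Orm1 and Mtarc1, both lower. On the control diet alone 0 of 19802 passed, with 575 (2.9%) at an unadjusted p under 0.05 and a smallest adjusted p of 0.963, and for the difference between the diets 0 passed, with 610 (3.08%) at an unadjusted p under 0.05 and a smallest adjusted p of 0.201.

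Igfbp3 had intensities of 681, 944, 838, 733 and 1389 in HF pregnant mice, against 381, 253, 225, 179 and 366 in HF non pregnant mice. In control pregnant mice its intensities were 496, 406, 508, 624 and 413, against 264, 203, 560, 193 and 231 in control non pregnant mice. The HF groups were fully apart, while on the control diet 1 non pregnant mouse, replicate 3, lay among the pregnant ones and the other 4 lay below all of them. The log2 difference was 1.29 ± 0.19 (SE, n = 10 pregnant and 10 non pregnant mice; 95% interval 0.88 to 1.70), with an adjusted p of 0.0288 by limma. It was 1.72 ± 0.27 on the HF diet (adjusted p = 0.0247, limma) and 0.86 ± 0.27 on the control diet (adjusted p = 0.963, limma), and the difference between these was 0.86 (adjusted p = 0.933, limma). A two-sided exact permutation test, as throughout, that exchanged mice within each diet gave p = 0.000157 for Igfbp3 over 63504 regroupings, where the smallest possible p was 3.15e-05 and 14 genes were tested in this way. Of these 14, all but Lep and Adipoq had been listed by the study from these same arrays. The second probe set of Igfbp3 differed by 1.13, with an adjusted p of 0.0198 by limma. Both probe sets lost the threshold in the fits without 1 of 11 mice, HF pregnant replicates 2 and 3, control pregnant replicates 1, 3 and 4, HF non pregnant replicates 2, 3 and 4 or control non pregnant replicates 2, 4 and 5, where the smallest adjusted p of any probe set lay between 0.0573 and 0.0687. They also lost it without the 2 arrays that held pancreatic RNA (0.0628).

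Of 18 genes listed for the IGF system, 12 were tested, and Igfbp3 was the one that passed. At an unadjusted p under 0.05, 3 were higher and 1 lower, against 2.32% and 1.92% of all genes. The median over the 12 was 0.04, against -0.00115 over all genes. Igfbp7, a matrix-bound relative of the binding proteins, had a lowest, median and highest intensity of 6360, 10041 and 10942 in pregnant mice and of 6556, 7914 and 9502 in non pregnant mice. Its log2 difference was 0.30 ± 0.09 (adjusted p = 0.593, limma), and 8 of 10 pregnant mice lay above all non pregnant mice, while control pregnant replicate 2 lay below all of them. Igf1 itself ran from 1788 to 6817 (median 3691) in pregnant and from 1432 to 3452 (median 2920) in non pregnant mice, a log2 difference of 0.45 ± 0.20 (exact permutation p = 0.0488; adjusted p = 1, limma). Igf2r, the receptor that clears IGF-2, differed by -0.16, and Igf2, Igfals, Igf1r, Igfbp4, Igfbp5 and Igfbp6 each differed by less than 0.20 in either direction.

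**Figure D1:**
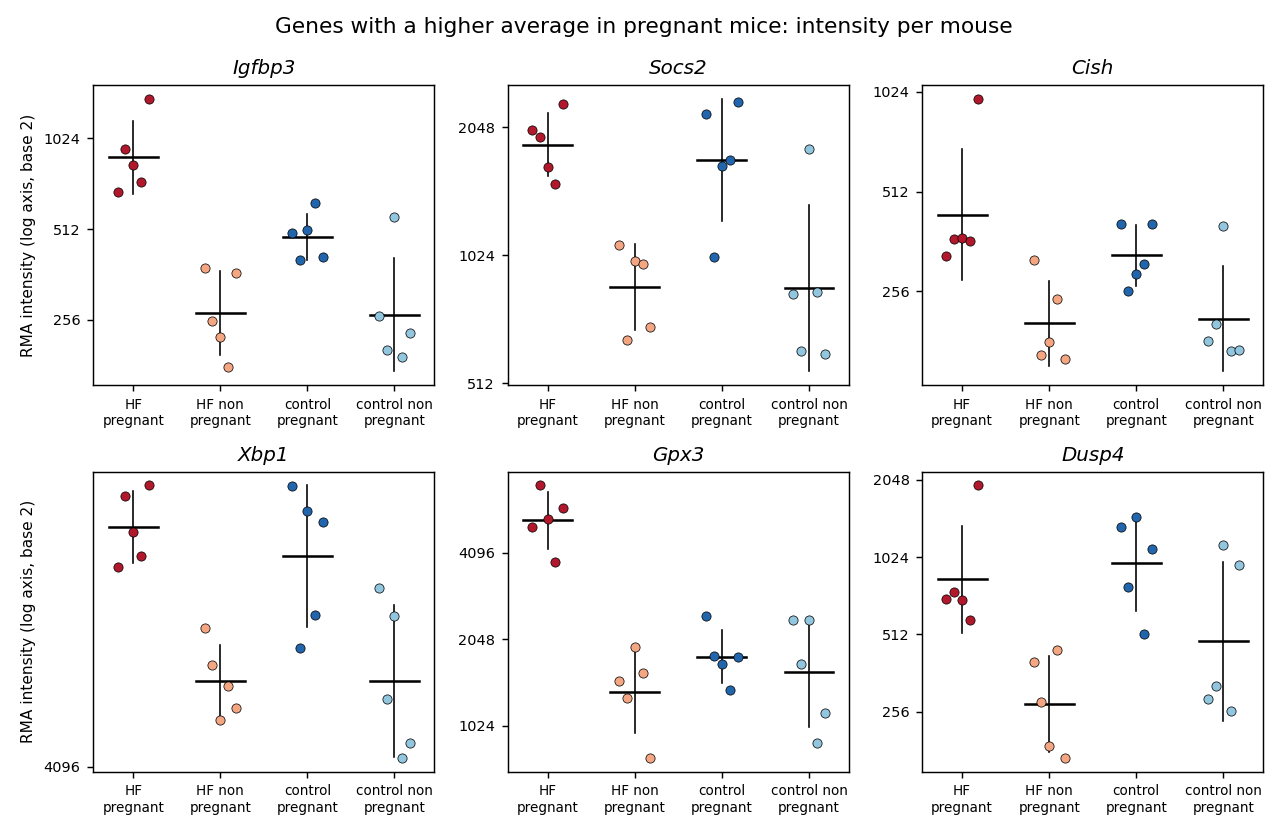
Normalized intensity of 6 genes in each of the 20 mice, on a log axis of base 2, by group. Points are mice, the horizontal bar is the mean of the log2 values and the vertical line their SD (n = 5). For Igfbp3, Socs2, Cish, Xbp1 and Dusp4 both pregnant groups have the higher mean on their diet, and Gpx3 stands out in HF pregnant mice.

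Among STAT5 targets, Socs2 was among the 12 genes with a positive average and the smallest p, and Cish was not. Socs2, an inhibitor of growth hormone and prolactin receptor signalling, had intensities of 2014, 1939, 1649, 1506 and 2318 in HF pregnant mice, against 1083, 648, 995, 978 and 695 in HF non pregnant mice. On the control diet they were 2205, 1014, 1660, 1715 and 2346 in pregnant mice, against 832, 608, 1817, 837 and 598 in non pregnant mice. Control non pregnant replicate 3 again lay with the pregnant mice, and apart from it all pregnant mice but control pregnant replicate 2 lay above all non pregnant ones. The log2 difference of Socs2 was 1.06 ± 0.19 (adjusted p = 0.0944, limma), with 1.11 on the HF diet and a difference between the diets of 0.11 ± 0.39. All 5 tested probe sets of Socs2 were higher in pregnant mice, by 0.45 to 1.21, with adjusted p values from 0.0686 to 0.405 by limma. Without control non pregnant replicate 3, the mouse high for this gene, the difference was 1.19 and passed (adjusted p = 0.00241, limma). This probe set passed in only 2 of the fits without 1 mouse and in 4 of 33 alternatives. Without HF non pregnant replicate 2 its adjusted p was 0.216 by limma.

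Cish, the related inhibitor, had intensities of 327, 368, 371, 363 and 976 in HF pregnant mice, against 318, 164, 181, 243 and 160 in HF non pregnant mice. In control pregnant mice they were 410, 257, 290, 309 and 409, against 181, 205, 402, 169 and 170 in control non pregnant mice. The HF groups did not overlap, by a narrow margin, and on the control diet only non pregnant replicate 3 reached the pregnant range. Its log2 difference was 0.86 ± 0.21 (adjusted p = 0.35, limma). Socs3, induced by several cytokines, differed by 0.36 (0.01 on the HF and 0.72 on the control diet), and the genes of the pathway itself stood near 0: Ghr 0.14, Jak2 -0.01, Stat5a 0.03 and Stat5b -0.03. Of 15 genes listed for prolactin and growth hormone signalling through STAT5, 13 were tested, and 10 had a positive average difference, against 49.5% of all genes. At an unadjusted p under 0.05, 3 were higher (Socs2, Cish and Igf1) and 0 were lower, against 2.32% and 1.92% of all genes.

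The STAT motif TTCNNNGAA, which reads the same on both strands, was looked for in the RefSeq promoter windows of build GRCm38.p6 (300 bases, 250 of them before the start site), a search chosen after the values were seen. Cish was shown because its window held 2 copies, with starts 11 bases apart and the first copy starting at the first transcribed base. The stretch lies on the plus strand at chr9:107296659-107296678, with the motif copies in capitals.
Cish: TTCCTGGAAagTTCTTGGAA
The motif was in 8.3% of all 32851 windows, and 0.457% held 2 or more copies. It was in none of the windows of 20 of the 24 genes ranked below, Igfbp3 among them, and Socs2 had no entry. These letters are a description and show no binding.

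**Figure D2:**
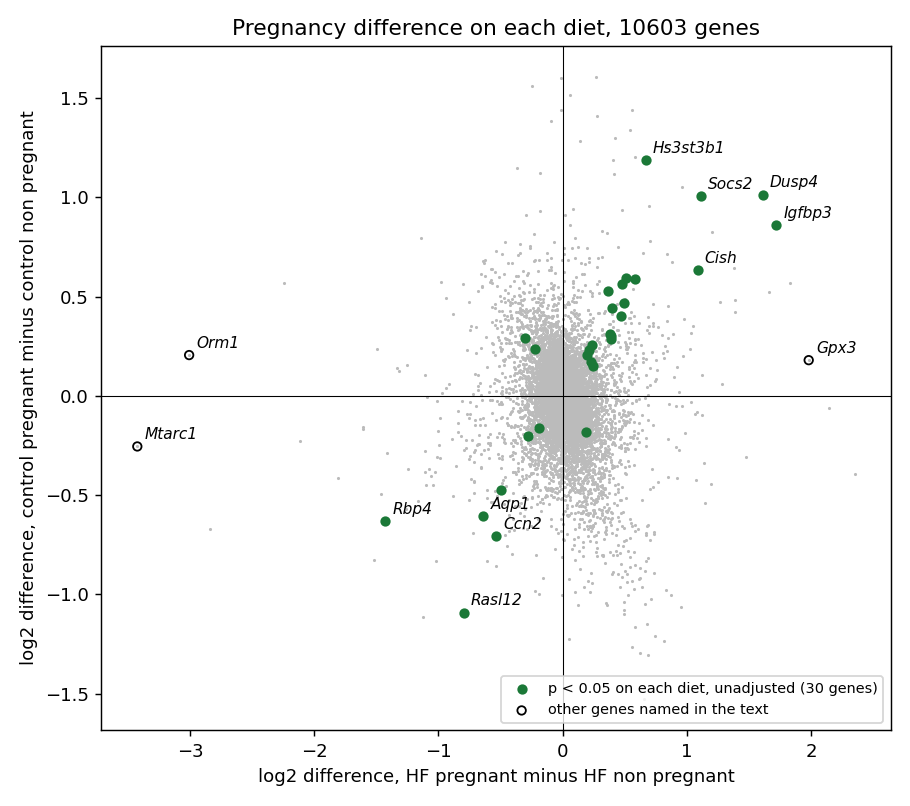
Log2 difference between pregnant and non pregnant mice on the HF diet (x axis) and on the control diet (y axis) for 10603 genes. Green points are the 30 genes with an unadjusted p under 0.05 on each diet, of which 20 lie in the upper right and 7 in the lower left quadrant; Gpx3, Orm1 and Mtarc1 lie far out along the HF axis alone.

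Over all genes the diets did not share a direction. The log2 differences on the HF and the control diet had a Pearson r of -0.14 and a Spearman rho of -0.22 over 10603 genes, which are not independent replicates and whose 4 groups were normalized together. The sign was the same on both diets for 4408 genes (41.6%) and opposite for 6195 (58.4%). Among the 30 genes (0.283%) with an unadjusted p under 0.05 on each diet, 20 were higher on both (0.189% of all genes), 7 were lower on both (0.066%) and 3 were opposite (0.0283%). The 20 were Igfbp3, Socs2, Cish, Dusp4, Hs3st3b1, Mycl, Lhx8, Gm4951, Grrp1, Mertk, Plvap, Rgs3, Xbp1, Ddhd1, Uhrf1bp1l, Ppp1r15a, Cept1, Selenos, Map3k5 and Slc38a6, and the 7 were Rbp4, Rasl12, Aqp1, Ccn2, Epb41l2, Selenow and Csnk2a1. No gene had all 10 pregnant mice above or below all 10 non pregnant mice, and none was without overlap on each diet in the same direction, where 148 genes (1.4%) were without overlap on the HF diet and 21 (0.198%) on the control diet.

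The 24 genes with the smallest unadjusted p among those with the same sign on both diets, 12 in each direction, included Igfbp3 and Socs2, and the others are given by role and not by rank. Xbp1, the transcription factor of the unfolded protein response, had intensities of 5788, 6548, 6152, 5902 and 6669 in HF pregnant mice, against 5212, 4887, 4442, 4707 and 4532 in HF non pregnant mice. Control pregnant mice had 6666, 5030, 6380, 5324 and 6260, against 5581, 4604, 5319, 4156 and 4267 in control non pregnant mice. The HF groups were apart, the control groups overlapped, and 8 of 10 pregnant mice lay above every non pregnant mouse. The log2 difference of Xbp1 was small and even, 0.35 ± 0.07 (HF 0.39, control 0.31; adjusted p = 0.122, limma), and its 4 probe sets gave 0.31 to 0.39. Selenos, a selenoprotein of the endoplasmic reticulum membrane, differed by 0.20 ± 0.04, and its control pregnant mice (2037 to 2100) lay above all control non pregnant mice (1713 to 1967).

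Gpx3, the secreted glutathione peroxidase, had intensities of 5030, 7042, 5382, 3802 and 5858 in HF pregnant mice, against 1461, 1274, 1932, 1559 and 789 in HF non pregnant mice. Control pregnant mice had 2463, 1794, 1682, 1365 and 1773, against 2385, 1676, 2391, 892 and 1134 in control non pregnant mice. Gpx3 rose on the HF diet, without overlap of the groups (1.98 ± 0.27, adjusted p = 0.00785, limma), and stood at 0.18 ± 0.27 on the control diet, with an average of 1.08 (adjusted p = 0.0944, limma).

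Hs3st3b1, which sulfates heparan sulfate, differed by 0.93 (HF 0.67, control 1.19; adjusted p = 0.139, limma). Its intensities in pregnant mice ran from 157 to 338 (median 205) and in non pregnant mice from 65.6 to 198 (median 106). Mertk, the macrophage receptor for dying cells, differed by 0.44 (HF 0.36, control 0.53), and Grrp1 by 0.48 (HF 0.49, control 0.47), with 6 and 8 of the 10 pregnant mice above all non pregnant ones. Reln (0.45), Mmp14, a membrane-bound collagenase (0.37), Sned1 (0.55) and the neuropeptide Nmb (0.32) completed the 12, each with the larger difference on the HF diet. None of these had an adjusted p under 0.05 by limma (0.0944 to 0.301). Where values below the filter's intensity threshold were raised to it, the average of Nmb was 0.17 and that of Hs3st3b1 0.77.

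Dusp4, a phosphatase that inactivates MAP kinases, is given after its values were seen. It had 704, 747, 695, 580 and 1952 in HF pregnant mice, against 399, 278, 188, 444 and 169 in HF non pregnant mice. Control pregnant mice had 1339, 781, 1465, 512 and 1101, against 287, 322, 1139, 256 and 958 in control non pregnant mice. Dusp4 had the largest positive average among the genes named here, 1.31 ± 0.32 (adjusted p = 0.35, limma), and 2 control non pregnant mice lay inside the pregnant range.

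**Figure D3:**
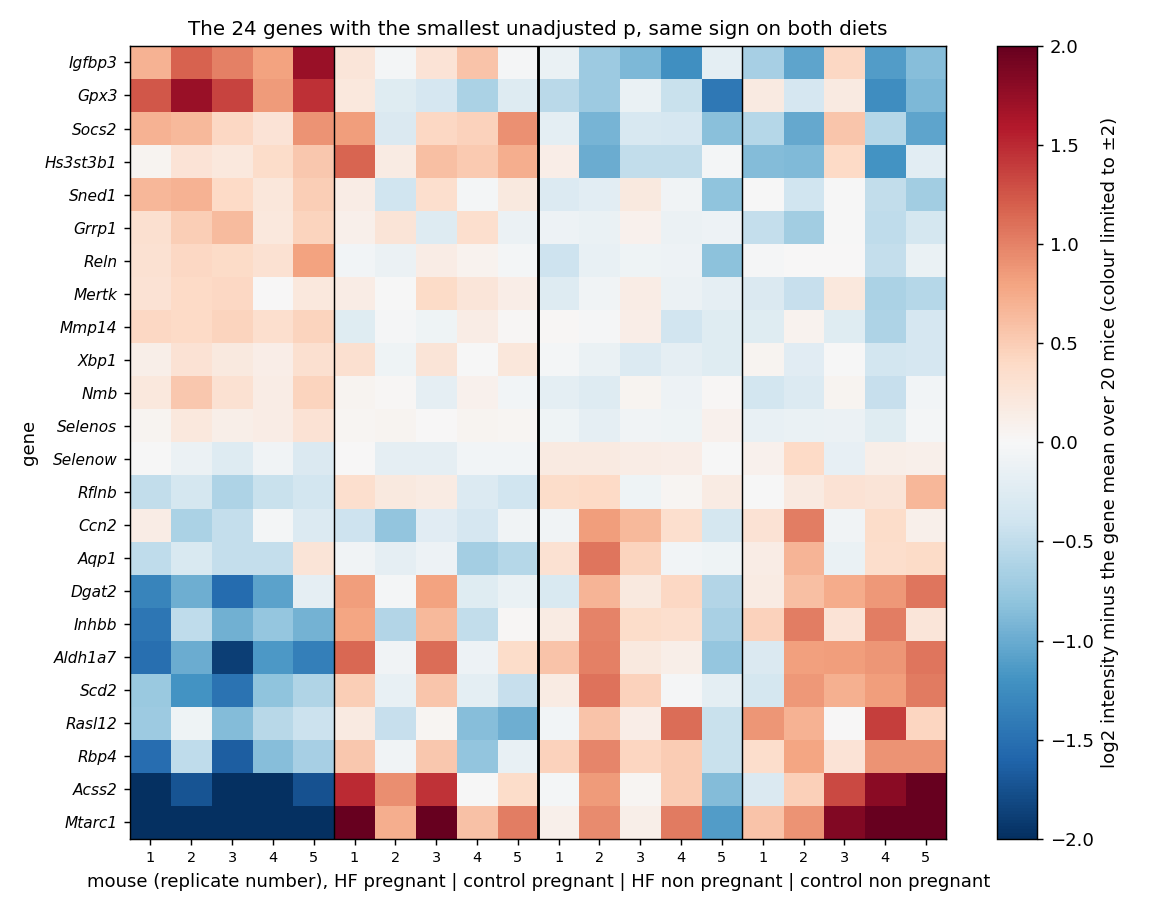
Log2 intensity of 24 genes (rows) in 20 mice (columns), each gene relative to its own mean, with pregnant mice left of the thick line. The upper 12 genes are mostly red in pregnant mice, with control non pregnant replicate 3 red for Igfbp3 and Socs2. Of the lower 12 genes, Mtarc1 and Acss2 are lowest in the 5 HF pregnant mice.

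The gene with the smallest p in the other direction was Mtarc1, an outer mitochondrial membrane enzyme. It had 39.3, 60.2, 26.1, 85.8 and 37.6 in HF pregnant mice, all under 100, against 452, 812, 458, 870 and 193 in HF non pregnant mice. Control pregnant mice had 2058, 698, 1931, 631 and 858, against 627, 786, 1524, 1776 and 2725 in control non pregnant mice. Its average of -1.84 combined -3.42 on the HF diet (adjusted p = 0.00785, limma) with -0.26 on the control diet, where the groups overlapped. Because every HF pregnant value lay below the filter's 100, these sizes are not exact. With values under 100 set to 100 the HF difference was -2.29 and the average -1.27. A second, less bright probe set of Mtarc1 differed by -1.04 on average, -1.67 on the HF diet and -0.41 on the control diet. Its adjusted p by limma was 0.792 for the average and 0.575 on the HF diet.

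Rbp4, the plasma carrier of retinol, was lower on both diets. It had 1230, 2491, 1134, 1963 and 2235 in HF pregnant mice, against 4873, 6961, 4806, 5038 and 2607 in HF non pregnant mice. In control pregnant mice it had 5170, 3367, 5180, 2052 and 3204, against 4546, 6143, 4306, 6625 and 6642 in control non pregnant mice. The HF groups were apart, and 3 of 5 control pregnant mice lay below all control non pregnant mice. The average was -1.03 ± 0.20 (HF -1.43, control -0.63), with an adjusted p of 0.137 by limma and an exact permutation p of 0.000504.

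Further down the ranking, Rasl12 (HF -0.80, control -1.09), the water channel Aqp1 (HF -0.64, control -0.60), Ccn2, a matricellular growth factor (HF -0.54, control -0.71), and Selenow (HF -0.28, control -0.20) had differences of similar size on both diets. Aqp1, for one, ran from 1193 to 2290 (median 1461) in pregnant and from 1740 to 4000 (median 2397) in non pregnant mice, with 7 of 10 pregnant mice below all non pregnant ones. For Scd2, Acss2, Dgat2, Inhbb, Rflnb and Aldh1a7 the difference was larger on the HF diet. Inhbb, a subunit of activin B, for example differed by -1.17 on the HF and -0.53 on the control diet. The adjusted p values of these 10 genes ran from 0.219 to 0.414 by limma.

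**Figure D4:**
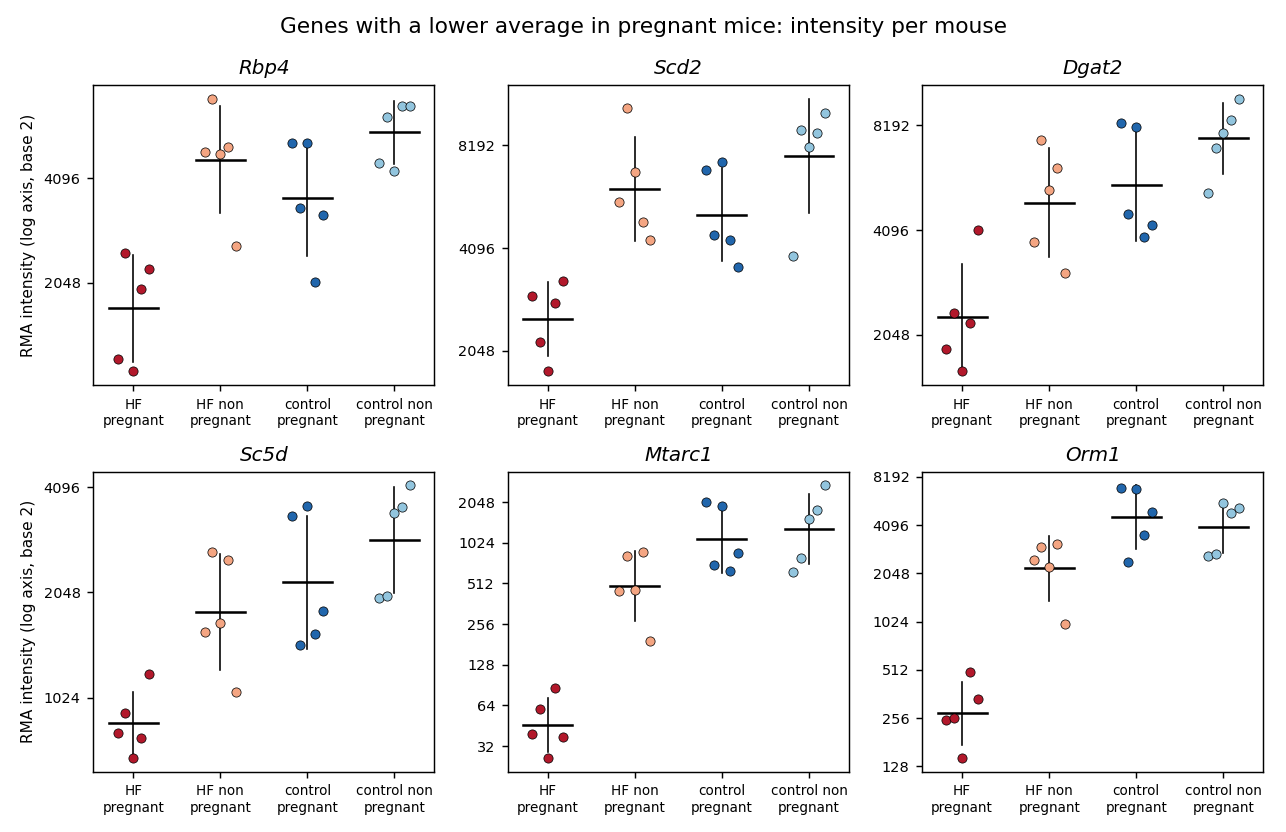
Normalized intensity of 6 genes in each of the 20 mice, drawn as for the genes higher in pregnancy. Rbp4, Scd2, Dgat2 and Sc5d have a lower mean in pregnant mice on both diets, whereas Mtarc1 and Orm1 are low in HF pregnant mice alone, where Mtarc1 does not exceed 85.8.

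Genes of lipid synthesis had negative averages in their majority, and the members with a small p came from the HF diet. All 19 tested genes of cholesterol synthesis (of 22 listed) had a negative average, against 50.5% of all genes, 15 of them on both diets, against 21%. At an unadjusted p under 0.05, 6 were lower on average, against 1.92% of all genes, and 10 on the HF diet but 0 on the control diet. Of all 10603 genes 192 were lower on the HF diet and 153 on the control diet at that level. The median was -0.39 (HF -0.62, control -0.15), with 0 members past the adjusted threshold. Sc5d, a late desaturase of the pathway, had 810, 923, 687, 783 and 1196 in HF pregnant mice, against 1573, 2667, 1670, 2536 and 1062 in HF non pregnant mice. In control pregnant mice it had 3375, 1451, 3618, 1555 and 1817, against 1979, 1995, 3453, 3598 and 4142 in control non pregnant mice. The groups overlapped on each diet, and the difference was -0.73 ± 0.22 (adjusted p = 0.609, limma). Insig1, the sterol sensor that holds back SREBP processing, differed by -0.75, squalene epoxidase Sqle by -0.41, Fdft1 by -0.45, Nsdhl by -0.52 and Msmo1 by -0.30. The count of 6 was 4 without the 2 arrays with pancreatic RNA and 8 without HF non pregnant replicate 5. In these fits 19 and 18 of the averages were negative. Of all 10603 genes 204 were lower at that level with all arrays, 128 without those 2 arrays and 449 without that mouse.

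Of 22 tested genes of de novo lipogenesis 19 had a negative average, against 50.5% of all genes, and 9 were negative on both diets, against 21%. At an unadjusted p under 0.05, 6 were lower on average, against 1.92% of all genes, 8 on the HF diet and 0 on the control diet. Of all 10603 genes 192 were lower on the HF diet and 153 on the control diet at that level. The median was -0.23 (HF -0.36, control -0.02), and 10 of the 22 were positive on the control diet. Scd2, a stearoyl-CoA desaturase, had 2964, 2180, 1785, 2829 and 3280 in HF pregnant mice, against 5574, 10548, 6830, 4869 and 4334 in HF non pregnant mice. Control pregnant mice had 6952, 4478, 7332, 4326 and 3612, against 3881, 9064, 8124, 8884 and 10172 in control non pregnant mice. Without control non pregnant replicate 1, the control groups would have been apart as well, and the average was -0.92 ± 0.20 (adjusted p = 0.219, limma).

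Acss2, which makes acetyl-CoA from acetate, differed by -2.12 on the HF and -0.23 on the control diet, Fasn, the fatty acid synthase, by -1.09 and -0.01, and Me1, a source of NADPH, by -1.31 and 0.12. The exact permutation p of the average was 0.0252 for Fasn and 0.0944 for Me1. Scd1 stood at 24163 to 28795 in pregnant and 24133 to 29936 in non pregnant mice, and differed by -0.10 (exact permutation p = 0.0106). A second, less bright probe set of Scd1 differed by -0.41 (HF -0.70, control -0.11). The count for the list was 3 without the 2 arrays with pancreatic RNA and 9 without HF non pregnant replicate 5. Of all 10603 genes 128 and 449 were lower at an unadjusted p under 0.05 in these fits, against 204 with all arrays.

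Dgat2, which completes triglyceride synthesis, had 1859, 2360, 1607, 2218 and 4087 in HF pregnant mice, against 3783, 7432, 5333, 6181 and 3090 in HF non pregnant mice. Control pregnant mice had 8303, 4546, 8094, 3920 and 4232, against 5235, 7042, 7792, 8506 and 9783 in control non pregnant mice. Pregnant and non pregnant mice overlapped on each diet, with 3 of 5 control pregnant mice below all control non pregnant mice, and the average was -0.77 ± 0.20 (exact permutation p = 0.00431; adjusted p = 0.414, limma). Gpat3, an enzyme of the first step, went the other way with 0.60. Of 25 genes of triglyceride synthesis and storage 1 was higher and 2 were lower at an unadjusted p under 0.05, and of 26 genes of lipolysis and fatty acid oxidation 0 were (median -0.05). Over all genes 2.32% were higher and 1.92% lower at that level.

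Secreted products of fat gave single genes rather than groups. Orm1, an acute phase plasma protein, had 249, 258, 144, 498 and 337 in HF pregnant mice, against 2499, 2975, 2253, 3127 and 995 in HF non pregnant mice, and 7011, 2416, 6925, 3562 and 4948 in control pregnant mice, against 2637, 2692, 5612, 4851 and 5253 in control non pregnant mice. It fell on the HF diet (-3.01, adjusted p = 0.00464, limma) and stood at 0.21 on the control diet, so that its average of -1.40 describes neither. Lep differed by -0.62 ± 0.42 (exact permutation p = 0.186) and Adipoq by -0.01 ± 0.09 (95% interval -0.20 to 0.17, exact permutation p = 0.892). Of 13 adipokine genes 1 was higher, Agt, the precursor of angiotensin, with 1.20 ± 0.35 (HF 1.83, control 0.57), and 1 was lower at an unadjusted p under 0.05, Npr3, which clears natriuretic peptides. Over all genes 2.32% were higher and 1.92% lower at that level.

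Of 17 receptors for hormones of pregnancy 14 were positive on the HF diet (median 0.18), as were 5304 of all 10603 genes. On the control diet 13 of the 17 were negative (median -0.17), as were 5352 of all genes. On both diets 3 receptors were positive and 2 negative, while 58.4% of all genes had opposite signs. Of these 17 tested receptors 1 was lower on average at an unadjusted p under 0.05, against 1.92% of all genes. This was again Npr3, with -1.11 ± 0.42 (HF -1.80, control -0.42). Esr1, the estrogen receptor α, ran from 533 to 2128 (median 1112) in pregnant and from 416 to 1457 (median 1185) in non pregnant mice and differed by 0.18 ± 0.24 (exact permutation p = 0.499). The average combined 0.50 on the HF and -0.15 on the control diet. Hsd17b12, a 17-beta-hydroxysteroid dehydrogenase that also elongates fatty acids, differed by 0.07 ± 0.21 (exact permutation p = 0.749), and Cyp1b1, which hydroxylates estradiol, by 0.55 ± 0.21, equally on both diets (HF 0.56, control 0.54; adjusted p = 0.941, limma).

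In insulin signalling 4 of 20 genes were higher and 1 was lower at an unadjusted p under 0.05, against 2.32% and 1.92% of all genes. The median was 0.10 (HF 0.11, control -0.04), 12 of the 20 were negative on the control diet, and 1 was higher at that level on each diet alone. Of all 10603 genes 265 were higher on the HF diet and 149 on the control diet at that level. The 4 were Foxo1 (0.20), Pik3r1, the regulatory subunit of PI3-kinase (0.39), Foxo3 (0.13) and Akt1 (0.11), and the 1 was Grb14 (-0.70), an inhibitor of the insulin receptor. Pik3r1 ran from 1771 to 4150 (median 2769) in pregnant and from 1628 to 3462 (median 2110) in non pregnant mice, with almost the same difference on each diet (HF 0.40, control 0.38). Its less bright probe sets gave averages of 0.37, 0.20 and 0.06, and those of Foxo1 gave 0.04 and 0.23. At an unadjusted p under 0.05, 1 of 4 probe sets of Pik3r1 and 1 of 3 of Foxo1 were higher. Of 18 glucocorticoid-induced genes 1 was higher, Fkbp5, the chaperone that the glucocorticoid receptor induces, with 0.57 (HF 0.32, control 0.83). In control mice it had 784, 451, 683, 844 and 718 in the pregnant, against 340, 258, 886, 302 and 353 in the non pregnant group, in which replicate 3 was once more the high one.

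Other lists carried few members at an unadjusted p under 0.05, where 2.32% of all genes were higher and 1.92% lower. Inflammatory mediators had 0 of 17 in either direction (Ccl2 -0.13, exact permutation p = 0.482), interferon-induced genes 0 of 16, circadian clock genes 0 of 15, and the respiratory chain 1 of 33 lower (Cox7a1, -0.43). Retinol metabolism had 1 of 16 higher, Rdh10 (0.15), and 2 lower, Rbp4 and Dhrs3 (-0.33), and Rdh11 differed by -0.50 ± 0.28 (exact permutation p = 0.11). Of 25 antioxidant enzymes 3 were higher, Gpx3, Hmox1 (0.37) and Txnrd1 (0.12), and 1 lower, Gstm1 (-0.28). Hmox1 ran from 80.6 to 139 in pregnant and from 47.3 to 122 in non pregnant mice, partly below the filter's intensity threshold. With lower values raised to that threshold, the average of Hmox1 was 0.08 and that of Cox7a1 -0.26. Angiogenic genes had Kdr, the VEGF receptor (0.28), and Flt4 (0.35) higher and Aplnr, the apelin receptor (-0.58), lower, of 19.

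**Figure D5:**
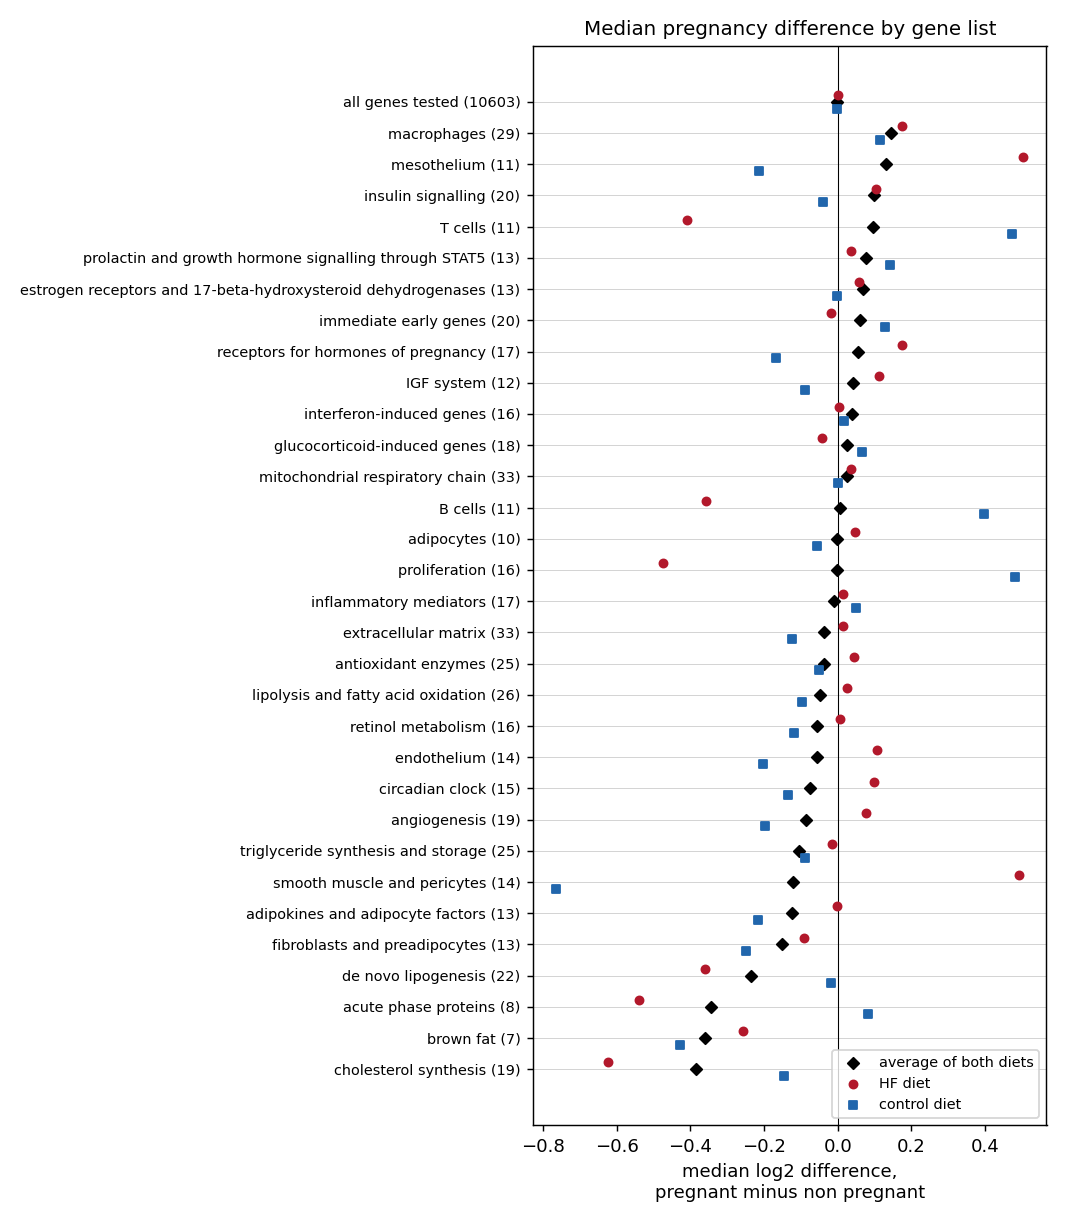
Median log2 difference between pregnant and non pregnant mice over the tested members of each list (number in brackets), as the average of both diets, on the HF diet and on the control diet, for lists with at least 7 tested members; all genes are the top row. Cholesterol synthesis and brown fat lie below 0 on both diets, while smooth muscle, mesothelium, proliferation, B cells and T cells lie on opposite sides of 0.

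Markers of several cell types had medians of opposite sign on the diets, whereas those of macrophages, brown fat, fibroblasts and skeletal muscle had 1 sign on both. Of 29 macrophage markers 3 were higher at an unadjusted p under 0.05, against 2.32% of all genes, and 0 lower. On both diets 16 were positive, against 20.6% of all genes, and 4 negative, against 21%, and the median was 0.15 (HF 0.18, control 0.12). The 3 higher ones were Mertk, Clec10a (0.47) and Trem2 (0.46), while Adgre1, which encodes F4/80, stood at 0.08 and Cd68 at 0.08. The average of Trem2 was 0.21 with values below the filter's intensity threshold raised to it. The summed intensity of the 30 markers on the array overlapped almost entirely, 45880 to 83918 in pregnant and 59332 to 85447 in non pregnant mice. Of 7 tested brown fat markers 6 were negative on both diets (median -0.36), with Otop1 (-0.98) and Cox7a1 lower at an unadjusted p under 0.05, and their sum over 13 markers ran from 1199 to 4658 in pregnant and from 986 to 4965 in non pregnant mice. Without the 2 arrays with pancreatic RNA 0 brown fat markers were lower at that level, against 128 of all 10603 genes. Fibroblast and preadipocyte markers had medians of -0.09 on the HF and -0.25 on the control diet, with 10 of 13 negative on average and 13 of 13 on the control diet. On the HF diet 7 were negative and 6 positive, and 2 were higher and 0 lower at an unadjusted p under 0.05. Of all 10603 genes 265 were higher and 192 lower on the HF diet at that level. Of 3 tested skeletal muscle markers all had a negative average, Myl1 (-0.52) and Acta1 (-0.51) at an unadjusted p under 0.05.

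Markers of smooth muscle and pericytes had a median of 0.49 on the HF and of -0.76 on the control diet, with 12 of 14 positive on the HF diet and 14 of 14 negative on the control diet. Of all 10603 genes 5304 were positive on the HF diet, 5352 were negative on the control diet and 58.4% had opposite signs. All 11 mesothelial markers were positive on the HF diet (median 0.50), and 9 were negative on the control diet (-0.21). B cell markers had -0.36 on the HF and 0.40 on the control diet, T cell markers -0.41 and 0.47, and all 16 proliferation genes were negative on the HF and positive on the control diet (-0.48 and 0.48). The medians of the averages over these 5 lists lay between -0.12 and 0.13, none of their members passed the adjusted threshold, and the part of these cells in the other differences was not tested beyond the following fit. With the mean of the B and T cell markers of each mouse as a covariate, 27 probe sets of 22 genes passed for the average, among them Igfbp3, Socs2, Gpx3, Xbp1, Grrp1, Mmp14, Reln and Plvap, which were higher, and Rbp4, Inhbb, Rasl12, Orm1 and Mtarc1, which were lower.

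Genes of the placenta and decidua were low in most mice, with higher sums in control pregnant replicates 3 and 5. None of 7 placental and decidual genes passed the filter, and their sum was 593 in control pregnant replicate 3 and 379 in control pregnant replicate 5, against at most 230.0 in any non pregnant mouse. Afp, of fetal liver and yolk sac, reached 223 as its highest value and Tpbpa of trophoblast 116. Of 12 mammary epithelial genes 1 passed the filter, and the milk protein gene Wap did not exceed 39.0 in any mouse.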

How the data were processed

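RNA from the visceral fat of 20 mice was measured on a mouse whole-genome oligonucleotide array from Affymetrix. The deposited intensity values were made by the authors with RMA (affy, R 2.8.0, per the submitters' processing notes), which corrects background, quantile-normalizes and summarises probes over all arrays. They were linear and were put on the log2 scale. Of 45101 probe sets, 64 manufacturer controls were left out, and 19802 that exceeded 100 in at least 5 of 20 arrays were tested with limma 3.58.1 in R 4.3.3, in 1 model of 4 groups whose contrasts were the average of pregnancy over the diets, each diet and their difference, with Benjamini-Hochberg adjustment. The fit was tested on simulated data. Gene names came from the platform annotation, in which 34958 probe sets had 1 symbol.

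Genes named were those past the adjusted threshold and the 12 in each direction with the smallest p and 1 sign on both diets. Added to them were up to 4 members of each list by smallest p, and 14 genes the study names. The study reports Lep and Adipoq as plasma proteins and the other genes as RNA of this tissue. Tnf, which the study also names, was not among the genes tested here. Of these 14, all but Lep and Adipoq stand in the study's list of changed genes from these arrays. Their tests here are therefore not independent of that list. Fdft1, Nsdhl, Foxo3, Akt1, Grb14, Txnrd1, Otop1, Dusp4 and other members were named after their values were seen. The members and lists were chosen with earlier results of these data known. Array files carry no depth, and the number of arrays limits the precision. Alternatives changed the filter, floor, probe set choice, normalization, array weights, model and arrays used. Withheld or unmatched list entries were not analysed here.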

Additional observations from a re-analysis of the deposited data

Results flagged for a closer look

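In groups of 5, a mouse was singled out where its gap to the nearest other value exceeded 0.71 of the group's range. This held for 20 of 304 sets of a named gene and a group, where chance gives about 1 in 20.

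HF non pregnant replicate 5, the mouse with the highest B cell and T cell marker sums and the lowest adipocyte (63514), endothelial (6352) and mesothelial (2939) sums of all 20, was low for Igf1 (1432, others 2705 to 3452), Scd1 (24133, others from 27994), Orm1 (995, others from 2253), Cp (1125, others from 2109), Agt (124, others from 328) and Selenow (3696, others from 4075). HF pregnant replicate 5 was high for Cish (976, others to 371), Dusp4 (1952, others to 747), Reln (657, others to 502), Insig1 (1828, others to 1133) and Aqp1 (2290, others to 1550). The summed intensity of 6 erythroid markers was 2520 in this mouse and 2760 in control non pregnant replicate 3. In no other mouse did that sum exceed 1017. The part of erythroid cells in the flagged values was not tested.

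Control non pregnant replicate 3 was high for Cish (402, others to 205), Fkbp5 (886, others to 353) and Pik3r1 (3462, others to 2122), all genes with a positive average in pregnancy. Control non pregnant replicate 1 was low for Scd2 (3881, others from 8124) and Aldh1a7 (2133, others from 4601), and replicate 5 of that group was high for Cyp1b1 (736.5, others to 459). Control pregnant replicate 2, which carried pancreatic genes, was low for Igfbp7 (6360, others from 9645), as was HF pregnant replicate 3 (9483, others from 10554). Grrp1 was high in HF non pregnant replicate 3 (181.8, others to 160).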

How the results depend on the processing

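The count of probe sets called for the average of both diets was 2, and it stayed within 1.5 times that with a mean filter, controls kept, a floor, trended or robust variance, an additive model, centring and quantile normalization. It was 1 without a filter, 1 with the mean of a gene's probe sets, 0 without the 2 arrays high in pancreatic genes, 27 with B and T cell markers as a covariate, 1706 with array weights and 105 where p before adjustment under 0.05 and at least 1.5-fold were asked for. The cause was not tested, except that HF non pregnant replicate 3 took a weight of 11.3 among the array weights. On the HF diet, where 5 were called, it was 2679 with array weights, 0 with a fit to the 10 mice of that diet, 3 with the mean of probe sets, 13 with the covariate and 251 by p and fold. On the control diet, where 0 were called, it was 4 with array weights and 96 by p and fold, and for the difference between the diets, where 0 were called, 2 and 177.

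Without 1 mouse the count ran from 0 to 10 for the average, from 3 to 10 on the HF diet and from 0 to 1 for the difference, and it was 0 throughout on the control diet. The 10 for the average came without control non pregnant replicate 3, when Gpx3, Grrp1, Hs3st3b1, Mertk, Slc3a2 and Socs2 passed beside Igfbp3; the 10 on the HF diet came without HF non pregnant replicate 5. It was also 6 without control pregnant replicate 2, 4 without HF non pregnant replicate 5 and 3 without HF non pregnant replicate 1. The log2 difference of Igfbp3 lay between 1.21 and 1.42 over 33 alternatives. At least 1 of its probe sets passed in 20 of them, and the brighter one in 16.

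Replicate numbers are shared by the groups but pair no mice in the labels. With the replicate number as a block (replicate block), 0 probe sets were called for the average and 3 on the HF diet. Over 30 same-numbered pairs the deviations had a median correlation of -0.161, and 2 of 20 arrays correlated best with their own number.

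Small averages changed sign. Hsd17b12 was -0.12 with array weights and ran from -0.033 to 0.14 without 1 mouse, Ccl2 was 0.065 with array weights, and Adipoq was 0.034 without the pancreatic arrays and ran from -0.069 to 0.035 without 1 mouse.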

Other observations

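Genes of the endoplasmic reticulum stress response were listed after Xbp1 and Selenos had been seen, so their count is a description only. Of 27 such genes 23 had a positive average, against 49.5% of all genes, and 14 were positive on both diets, against 20.6%, with a median of 0.08. Without Xbp1 and Selenos these counts were 21 and 12 of 25, with a median of 0.06. At an unadjusted p under 0.05, 5 were higher, against 2.32% of all genes, and 0 lower: Xbp1, Ppp1r15a (0.25), which restores translation after stress, Selenos, Pdia4 (0.19) and Ern1 (0.17), the kinase that splices Xbp1 RNA. None passed the adjusted threshold.

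Matrix and early response genes gave a few further values. Thbs2, a matricellular protein, differed by 1.48 on the HF and -0.31 on the control diet, and Col15a1, a basement membrane collagen, by -0.99 and -0.11. The less bright probe sets of Thbs2 gave 0.53 and 0.43 on the HF diet, and -0.21 and -0.24 on the control diet. Tgm2, a transglutaminase that crosslinks proteins, differed by 0.57 and 0.14. Among immediate early genes Fos differed by 0.46 on each diet and Ier3 by 0.67 and 0.10. Plvap, of fenestrated endothelium, differed by 0.47 on the HF and 0.40 on the control diet.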
